A study of Mus musculus with 16 samples.

Results

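The genes described here are 9 regulators and markers of the trophoblast lineage, *Hand1*, *Cdx2*, *Elf5*, *Gata2*, *Gata3*, *Tfap2c*, *Esx1*, *Plac1* and *Krt19*, taken as a list of symbols and matched to the entry of highest mean normalized count per gene. They are 9 of the 19338 genes with a symbol in the tables, and all 9 were tested in each comparison. Nuclear RNA of mouse embryonic stem cells (ESCs) was sequenced after loss of Polycomb repressive complex 1 (PRC1), of PRC2 or of both, in 16 libraries that form 4 groups of 4 biological replicates. PRC1-null cells were Ring1a-/-;Ring1bfl/fl cells given 800 nM 4-hydroxytamoxifen for 72 h, which removes RING1B. PRC2-null cells were Eed-/-;Ring1a-/-;Ring1bfl/fl (PcG DKO) cells of clone B4, left untreated, in which *Eed* had been disrupted with CRISPR/Cas9. PRC1/2-null cells were the same clone after the same tamoxifen treatment, and control cells were untreated Ring1a-/-;Ring1bfl/fl cells. Every group, control included, therefore lacked RING1A, and all cells were grown without feeders on gelatin in serum with leukemia inhibitory factor. Loss of PRC2 and the choice of clone B4, or loss of RING1B and tamoxifen itself, cannot be told apart among these samples, and the clone was also at partly later passages. Loss of EED was constitutive, while RING1B was removed within 72 h. Between PRC2-null and PRC1-null cells, the complex lost and the time since its loss therefore cannot be told apart either.

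Trophoblast is the outer layer of the blastocyst and the source of the placenta, a lineage that mouse ESCs rarely enter. CDX2, GATA3 and TFAP2C drive its specification, ELF5 and EOMES maintain trophoblast stem cells, and HAND1 promotes giant cell differentiation. PRC2, which needs EED, methylates histone H3 at lysine 27, and PRC1, whose catalytic subunits are RING1A and RING1B, ubiquitylates histone H2A. Both complexes occupy CpG islands of silent developmental genes in ESCs, where they hold transcription low.

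Since Polycomb complexes gather at CpG-rich promoters, the 250 bases upstream of the start are printed for *Esx1* and *Gata3*, which rose after loss of PRC1, and for *Plac1*, which was called only where PRC2 was absent. The sequences are those of RefSeq on GRCm38.p6, read 5′ to 3′ on the strand of the gene, all minus, with each CpG in capitals. The windows are chrX:137120327-137120576 for *Esx1*, chr2:9878601-9878850 for *Gata3* and chrX:53114406-53114655 for *Plac1*.
Esx1: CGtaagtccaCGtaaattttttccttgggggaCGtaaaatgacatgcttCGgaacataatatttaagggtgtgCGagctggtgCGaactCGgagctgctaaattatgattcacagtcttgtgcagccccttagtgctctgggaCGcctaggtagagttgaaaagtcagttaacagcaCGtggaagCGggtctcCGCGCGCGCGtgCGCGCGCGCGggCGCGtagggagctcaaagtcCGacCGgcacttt
Gata3: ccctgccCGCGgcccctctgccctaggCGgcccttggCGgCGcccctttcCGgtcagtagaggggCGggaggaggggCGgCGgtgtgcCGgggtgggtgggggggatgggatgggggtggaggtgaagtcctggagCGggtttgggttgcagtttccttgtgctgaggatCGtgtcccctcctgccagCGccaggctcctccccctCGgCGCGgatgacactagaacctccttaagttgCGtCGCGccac
Plac1: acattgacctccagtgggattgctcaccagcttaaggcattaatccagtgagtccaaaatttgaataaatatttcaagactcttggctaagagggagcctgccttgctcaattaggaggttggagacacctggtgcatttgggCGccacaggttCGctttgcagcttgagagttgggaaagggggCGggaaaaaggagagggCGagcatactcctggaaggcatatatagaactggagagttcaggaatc
The *Esx1* window held 24 CpGs, that of *Gata3* 19 and that of *Plac1* 4, while the median over 32851 windows of 27025 genes was 6. RefSeq windows were matched for 6 of the 9 genes, the others being *Cdx2* with 13 CpGs, *Gata2* with 24 and *Elf5* with 2. The windows nearest to the counted transcript were taken, at 410 bases from its start for *Elf5*, 330 for *Gata2* and 125 for *Plac1*, and a second window farther away held 8 CpGs for *Elf5*, 22 for *Gata2* and 2 for *Plac1*. Neither TATAAA nor AGATAA was found on either strand of the nearest window of any of the 6 genes, and 12.4% and 9.99% of all windows hold these letters. The second window of *Plac1* held AGATAA. Only exact matches were sought, so that related sequences were not counted. No test was made on these 6 windows, and whether CpG content goes with the response to either loss was not tested. *Hand1* and *Krt19*, which were also called in PRC1-null cells, had no window, and Polycomb occupancy of the genes was not examined.

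Most of the trophoblast genes were higher than in control in each null group, and for 6 of the 9 the change was larger in PRC2-null than in PRC1-null cells. A gene was called where its adjusted p was under 0.05 and its moderated fold change, which is drawn toward no change in low genes, was over 2, a log2 value of 1. Because the genes were chosen with earlier results of these data known, the counts beside the shares of all genes are a description and no test. In PRC1-null cells 6 of the 9 genes were higher than in control, where 10.9% of all genes tested were. In PRC2-null cells 8 of the 9 were higher, beside 15.1% of all genes, and in PRC1/2-null cells 8 of the 9, beside 21.1%. None of the 9 was called lower, while 1.1% of all genes were in PRC1-null cells, 5.19% in PRC2-null cells and 10.4% in PRC1/2-null cells. The median moderated log2 fold change of the 9 genes was 2.12 in PRC1-null cells, 3.96 in PRC2-null cells and 4.93 in PRC1/2-null cells, and that of all genes −0.04, 0.04 and 0.05. The 3 comparisons share their control libraries. The tables give no values per library, so that levels are stated as the mean normalized count each group must have for the deposited mean and unshrunken fold changes to hold, called the implied mean here, which carries no error. For 8 of the 9 genes the implied means ran, low to high, through control cells, cells without PRC1, cells without PRC2 and cells without both, and which neighbours in that order differed is given gene by gene. In bulk RNA, a few cells with much of a transcript and many cells with little of it cannot be told apart.

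**Figure D1:**
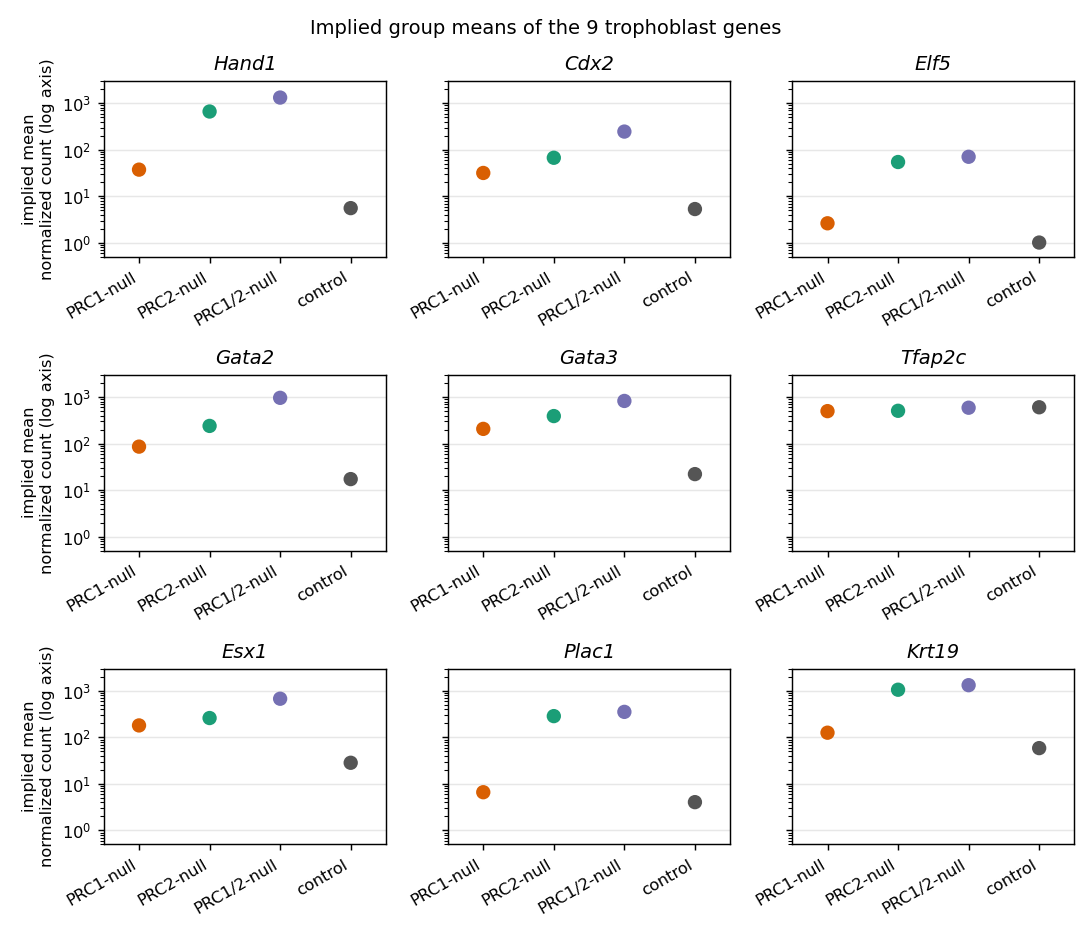
Implied mean normalized count (log axis) of each trophoblast gene in each null group and in control cells, 1 panel per gene and 1 point per group of 4 libraries. The point of control cells is the lowest for every gene but *Tfap2c*, whose 4 values lie between 498 and 603.

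*Hand1*, a basic helix-loop-helix factor of trophoblast giant cells that also acts in heart and extraembryonic mesoderm, had the largest fold change of the 9 genes in PRC2-null cells and PRC1/2-null cells. Its implied mean was 37.4 in PRC1-null cells, 664 in PRC2-null cells and 1325 in PRC1/2-null cells, against 5.57 in control cells. From the authors' deposited tables, the log2 fold change was 2.31 (SE 0.33, adjusted p = 6.67e-11) in PRC1-null cells, 6.31 (SE 0.32) in PRC2-null cells and 7.28 (SE 0.32) in PRC1/2-null cells. The PRC2-null change exceeded the PRC1-null change by 4.00 (95% interval 3.11 to 4.90, adjusted p = 4.28e-16, Wald test on the difference). The step between PRC1/2-null and PRC2-null cells was 0.97 (0.09 to 1.85) with an adjusted p of 0.113, so that these neighbours were not separated after adjustment. It passed with the shared control variance taken out, which was done on the assumption of equal variance in every group. *Hand1* (NM_008213) lies on chromosome 11 from 57828713 to 57832147 of mm10. That chromosome as a whole stood higher in the Eed-/- clone. Over its 926 genes with a mean of at least 100, the median log2 fold change minus the median elsewhere in the genome was 0.02 in PRC1-null cells, 0.47 in PRC2-null cells and 0.51 in PRC1/2-null cells. Re-centred on the median of its chromosome, *Hand1* was at 5.92 in PRC2-null cells and 6.89 in PRC1/2-null cells and remained called.

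*Cdx2*, the homeobox factor that opposes pluripotency in the outer cells of the embryo and later patterns the posterior body and gut, rose in each null group. Implied means were 31.8 in PRC1-null cells, 67.3 in PRC2-null cells and 246 in PRC1/2-null cells, against 5.33 in control cells. The log2 fold changes were 2.15 (SE 0.39, adjusted p = 5.32e-07), 3.16 (SE 0.39) and 4.93 (SE 0.38) in that order. PRC2-null and PRC1-null cells differed by 1.01 (−0.07 to 2.09, adjusted p = 0.161), which was not past the threshold unless the shared control variance was taken out. Tamoxifen treatment of the Eed-/- clone went with a further 1.77 (0.71 to 2.83, adjusted p = 0.00908) between PRC1/2-null and PRC2-null cells. *Cdx2* (NM_007673) spans chromosome 5 from 147300900 to 147307249.

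*Elf5*, an ETS factor that keeps trophoblast stem cells renewing and is also used in mammary epithelium, was at a low level in control cells. Its implied mean was 2.63 in PRC1-null cells, 54.6 in PRC2-null cells and 70.7 in PRC1/2-null cells, against 1.01 in control cells. In PRC1-null cells its log2 fold change was 0.65 (SE 0.55, adjusted p = 0.395), with a 95% interval of −0.44 to 1.73. In PRC2-null cells it rose by 4.24 (SE 0.50, adjusted p = 4.77e-16) and in PRC1/2-null cells by 4.58 (SE 0.50), and the unshrunken values of 5.75 and 6.12 show how far so low a gene is moderated. The difference of 3.59 between PRC2-null and PRC1-null cells (2.12 to 5.06, adjusted p = 2.24e-05) passed the test, and that of 0.34 between PRC1/2-null and PRC2-null cells (−1.05 to 1.74, adjusted p = 0.821) did not. A second entry of *Elf5* (NM_010125), which may share reads with the one used (NM_001145813, chromosome 2 from 103412098 to 103450989), was at 0.25 in PRC1-null cells, 4.23 in PRC2-null cells and 4.58 in PRC1/2-null cells.

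*Gata2* and *Gata3* encode paralogous zinc finger factors that activate placental genes and act in blood and in neurons or T cells as well. *Gata2* (NM_008090, chromosome 6 from 88193891 to 88207032) had implied means of 86.0 in PRC1-null cells, 239.6 in PRC2-null cells and 962 in PRC1/2-null cells, against 17.2 in control cells. Its log2 fold changes were 2.12 (SE 0.31, adjusted p = 2.54e-10) in PRC1-null cells, 3.53 (SE 0.31) in PRC2-null cells and 5.45 (SE 0.31) in PRC1/2-null cells. Each step in that order passed the test, with 1.41 between PRC2-null and PRC1-null (0.54 to 2.27, adjusted p = 0.00721) and 1.92 between PRC1/2-null and PRC2-null cells (1.07 to 2.77, adjusted p = 0.000206).

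*Gata3* (NM_008091, chromosome 2 from 9857078 to 9887953) had implied means of 207 in PRC1-null cells, 390.0 in PRC2-null cells and 824 in PRC1/2-null cells, against 22.1 in control cells. At 3.07 (SE 0.25, adjusted p = 2.83e-33), its log2 fold change was the largest of the 9 genes in PRC1-null cells, and it reached 3.96 (SE 0.24) in PRC2-null cells and 5.01 (SE 0.24) in PRC1/2-null cells. The step of 0.89 between PRC2-null and PRC1-null cells (0.21 to 1.57, adjusted p = 0.0374) and that of 1.05 between PRC1/2-null and PRC2-null cells (0.38 to 1.73, adjusted p = 0.0159) were both past the threshold. *Gata3* overlaps 4930412O13Rik and the antisense gene Gm13256 on the opposite strand and 9230102O04Rik on its own strand. Gm13256 has no entry matched here, and the other overlapping genes had mean normalized counts of 5.92 and 14.7, and they rose in all null groups, by 2.08 for 4930412O13Rik and 2.08 for 9230102O04Rik in PRC1-null cells. The library kit keeps strand, but whether counting used it is not given in the sources used here, and reads shared among these genes and *Gata3* were not separated. GENCODE M21 annotates no gene over the other 8 trophoblast genes.

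*Tfap2c*, an AP-2 factor of trophoblast that also acts in germ cells and naive pluripotent cells, was called in no null group. Its implied means were 498 in PRC1-null cells, 506 in PRC2-null cells and 589 in PRC1/2-null cells, against 603 in control cells. The log2 fold changes were −0.27 (95% interval −0.63 to 0.08, adjusted p = 0.257) in PRC1-null cells, −0.25 (−0.60 to 0.11, adjusted p = 0.248) in PRC2-null cells and −0.03 (−0.39 to 0.32, adjusted p = 0.889) in PRC1/2-null cells. These intervals leave no room for a 2-fold change in either direction. The last of these values turned to 0.042 when fold changes were re-centred on the median of all entries, and to 0.076 by chromosome. *Tfap2c* (NM_009335) lies on chromosome 2 from 172545678 to 172558622.

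*Esx1*, an X-linked homeobox gene of the labyrinth and chorion, had implied means of 181 in PRC1-null cells, 260.4 in PRC2-null cells and 677 in PRC1/2-null cells, against 28.5 in control cells. Its log2 fold changes were 2.53 (SE 0.26, adjusted p = 3.50e-21) in PRC1-null cells, 3.04 (SE 0.26) in PRC2-null cells and 4.38 (SE 0.25) in PRC1/2-null cells. PRC2-null and PRC1-null cells differed by 0.51 (−0.20 to 1.22, adjusted p = 0.304), which did not pass the test. PRC1/2-null cells were higher than PRC2-null cells by 1.34 (0.63 to 2.04, adjusted p = 0.00237). *Esx1* (NM_007957) spans chromosome X from 137115397 to 137122131, and its promoter window was among the CpG-rich ones printed above.

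*Plac1*, an X-linked gene for a membrane-associated protein of placental trophoblast, showed the widest gap between the loss of PRC1 and the loss of PRC2. It had implied means of 6.63 in PRC1-null cells, 286 in PRC2-null cells and 353 in PRC1/2-null cells, against 4.06 in control cells. In PRC1-null cells the log2 fold change was 0.50 (SE 0.42, interval −0.32 to 1.32, adjusted p = 0.385). In PRC2-null cells it was 5.50 (SE 0.37) and in PRC1/2-null cells 5.79 (SE 0.37). The difference between PRC2-null and PRC1-null cells was 4.99 (3.90 to 6.09, adjusted p = 6.84e-17), the largest of the 9 genes. PRC1/2-null cells did not differ detectably from PRC2-null cells, at 0.29 (−0.72 to 1.31, adjusted p = 0.785). *Plac1* (NM_019538) spans chromosome X from 53069993 to 53240110, and its printed promoter window held few CpGs.

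*Krt19*, a keratin of trophectoderm and of other simple epithelia, had implied means of 126 in PRC1-null cells, 1056 in PRC2-null cells and 1323 in PRC1/2-null cells, against 58.8 in control cells. The log2 fold change of 1.05 in PRC1-null cells (SE 0.24, adjusted p = 0.000109) was just past the fold threshold. It was 4.02 (SE 0.24) in PRC2-null cells and 4.34 (SE 0.24) in PRC1/2-null cells. PRC2-null cells exceeded PRC1-null cells by 2.97 (2.31 to 3.63, adjusted p = 2.74e-16), while the difference between PRC1/2-null and PRC2-null cells was 0.32 (−0.34 to 0.97, adjusted p = 0.598), which was not past the threshold. *Krt19* (NM_008471, chromosome 11 from 100140810 to 100145926) shares the chromosome of *Hand1*, and re-centred on that chromosome it was at 1.11 in PRC1-null cells, 3.62 in PRC2-null cells and 3.94 in PRC1/2-null cells.

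**Figure D2:**
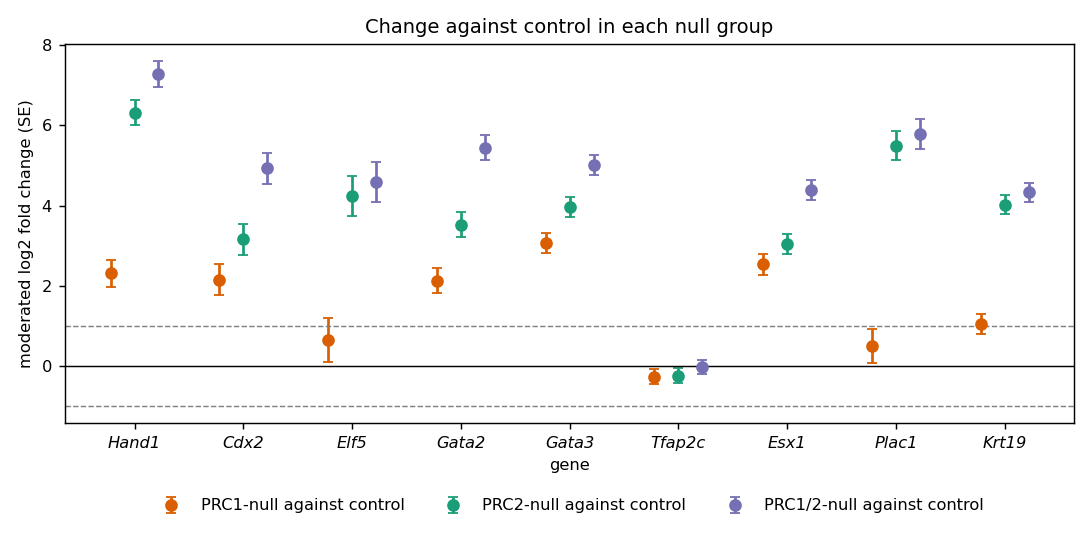
Moderated log2 fold change against control of each trophoblast gene in the 3 null groups (points, with bars of 1 SE from the authors' deposited tables), with dashed lines at the 2-fold threshold. *Plac1* and *Elf5* sit within the lines in PRC1-null cells, at 0.50 and 0.65, and above 4 in both Eed-/- groups.

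The single losses were set against each other next. The difference between PRC2-null and PRC1-null changes was positive and past an adjusted p of 0.05 for 6 of the 9 genes, as it was for 14.9% of all genes tested. These were *Plac1*, *Hand1*, *Elf5*, *Krt19*, *Gata2* and *Gata3*, with differences of 0.89 to 4.99. The remaining genes were *Cdx2*, *Esx1* and *Tfap2c*, and none of the 9 passed in the negative direction. Since the shared controls cancel in such a difference while their variance was counted for both comparisons, the test is conservative.

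Loss of RING1B was then examined in cells that already lacked EED. The difference between PRC1/2-null and PRC2-null changes was positive and past the threshold for 4 of the 9 genes, against 9.47% of all genes tested. *Gata2* (1.92), *Cdx2* (1.77), *Esx1* (1.34) and *Gata3* (1.05) made up this group, and all of them were also called in PRC1-null cells against control. The share of all genes that passed both was not computed. The genes *Hand1* and *Krt19* were called in PRC1-null cells too but are not in this group. *Hand1*, *Elf5*, *Plac1*, *Krt19* and *Tfap2c* did not pass, with upper bounds of the interval between 0.72 and 1.85. Between PRC1/2-null and PRC1-null cells 8 of the 9 genes were higher in PRC1/2-null cells, by 1.85 for *Esx1* up to 5.29 for *Plac1*, and 21.6% of all genes tested passed that test in the same direction. The median difference of the 9 genes was 1.41 for PRC2-null minus PRC1-null, 0.97 for PRC1/2-null minus PRC2-null and 3.29 for PRC1/2-null minus PRC1-null, and that of all genes 0.01, −0.02 and 0.05.

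The tamoxifen effect was larger with EED present than without it for *Gata3*. It was 3.07 between PRC1-null and control cells and 1.05 between PRC1/2-null and PRC2-null cells, and the difference between these effects, which is also the change with both complexes lost minus the sum of the single changes, was −2.01 (−2.84 to −1.18, adjusted p = 0.000121). This departure was negative and past the threshold for 1 of the 9 genes, against 5.42% of all genes tested. *Hand1* was at −1.34 (−2.43 to −0.25, adjusted p = 0.130) and *Esx1* at −1.19 (−2.06 to −0.33, adjusted p = 0.0738), both short of the threshold. With the shared control variance taken out, and likewise with unshrunken changes, *Hand1* and *Esx1* passed as well, which made 3 of the 9 genes. The unshrunken changes were divided by the standard errors of the moderated ones, so that passing there is no proper test. The share of all genes that passed under these alternatives was not computed. *Cdx2* (−0.38) and *Gata2* (−0.20) had intervals of −1.70 to 0.93 and −1.25 to 0.85, and the median of the 9 genes was −0.38.

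**Figure D3:**
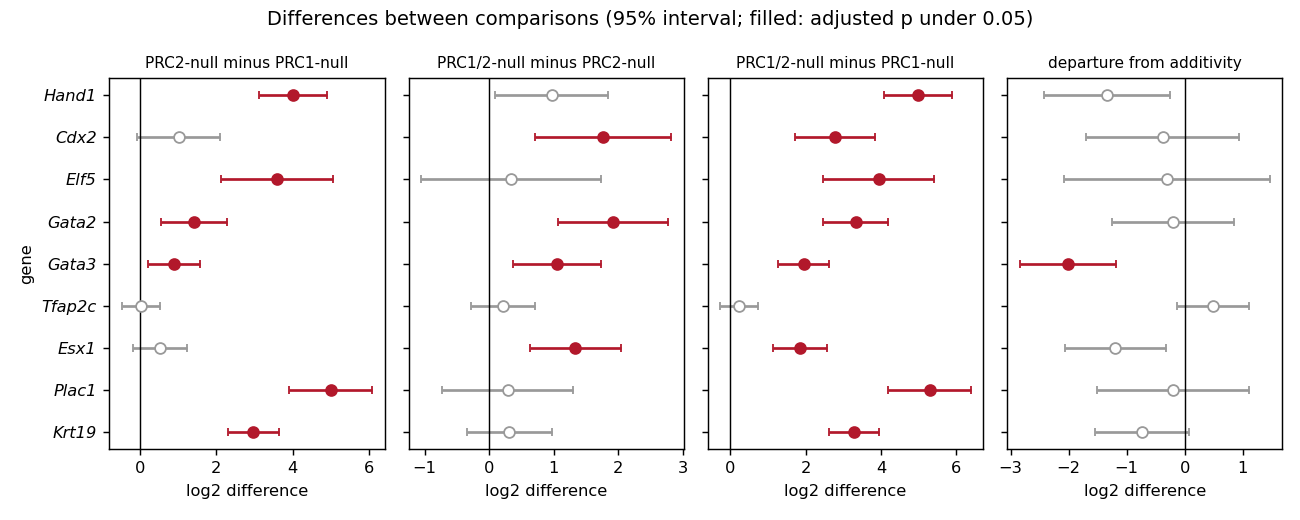
Differences between the log2 fold changes of the null groups for each trophoblast gene, with 95% intervals, for PRC2-null minus PRC1-null, PRC1/2-null minus PRC2-null, PRC1/2-null minus PRC1-null and the departure from additivity. Filled points have an adjusted p under 0.05, which holds for 6, 4, 8 and 1 of the 9 genes.

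Other genes of the trophoblast program moved in part. Of 57 further genes of this lineage on lists by role, 45 were in the tables and 42 were tested. In PRC1-null cells 11 were called higher and 2 lower, where 10.9% and 1.1% of all genes tested were. In PRC2-null cells 17 were higher and 4 lower, beside 15.1% and 5.19% of all genes, and in PRC1/2-null cells 18 and 6, beside 21.1% and 10.4%. Of them, *Eomes*, *Esrrb*, *Fgf4* and *Sox2* are also markers of other cell types below. Their median log2 fold change was 0.27 in PRC1-null cells, 0.54 in PRC2-null cells and 0.73 in PRC1/2-null cells.

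Among 15 tested stem cell regulators and signalling genes, 4 were higher and 1 lower in PRC1-null cells, 5 higher and 3 lower in PRC2-null cells, and 6 higher and 4 lower in PRC1/2-null cells, to be read against the same shares of all genes. *Tfap2a*, another AP-2 factor, was at 3.15, 3.29 and 3.97 in the same order of groups, and its implied mean was 252 in PRC1-null cells, 277 in PRC2-null cells and 446 in PRC1/2-null cells, against 26.9 in control cells. *Eomes*, a T-box factor of trophoblast stem cells and mesendoderm, rose by 1.49, 1.45 and 2.21, and *Elf3*, an epithelial ETS factor, by 1.01, 1.42 and 2.31. The receptor *Fgfr2*, through which FGF4 maintains trophoblast stem cells, passed in PRC1-null cells (1.07) and PRC1/2-null cells (1.98) and was at 0.86 in PRC2-null cells. The lower members included *Sox2*, *Esrrb* and *Fgf4*, which ESCs also use.

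Of 15 tested genes of the ectoplacental cone, labyrinth and syncytium, 5 were higher in PRC1-null cells, 9 in PRC2-null cells and 9 in PRC1/2-null cells, with medians of 0.56, 1.67 and 2.23. Over all genes tested, 10.9%, 15.1% and 21.1% were called higher in that order and 1.1%, 5.19% and 10.4% lower. The counts of the smaller epithelial and giant cell lists below are to be read against the same shares. *Igf2*, an imprinted placental growth factor, was at 2.29 in PRC1-null cells, 4.86 in PRC2-null cells and 5.79 in PRC1/2-null cells. *Pparg*, a nuclear receptor of the labyrinth, was at 2.19, 4.07 and 4.51, and *Dlx3*, a homeobox factor of the same layer, at 2.55, 2.77 and 3.71. *Fzd5*, a Wnt receptor, was the only member called lower, in every null group. Of 7 tested epithelial genes, 2 were called higher in PRC1-null cells, 2 in PRC2-null cells and 3 in PRC1/2-null cells, and none lower. Among them *Krt7*, a trophoblast keratin, rose by 1.16, 3.04 and 3.71 and *Dsp*, a desmosome component, by 1.31, 1.90 and 2.64. *Cldn4*, a tight junction gene, was called in PRC1/2-null cells (1.86) and was at 0.25 in PRC1-null cells and 0.68 in PRC2-null cells. The adhesion gene *Epcam* was at −0.35, −0.56 and −0.57, short of the fold threshold in each group. Of 5 tested giant cell genes, *Cited2* was higher in PRC2-null cells (1.40) and *Lifr* lower in PRC1/2-null cells (−1.16), and the giant cell genes *Prl3b1* and *Ctsq* had a mean of 0.

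**Figure D4:**
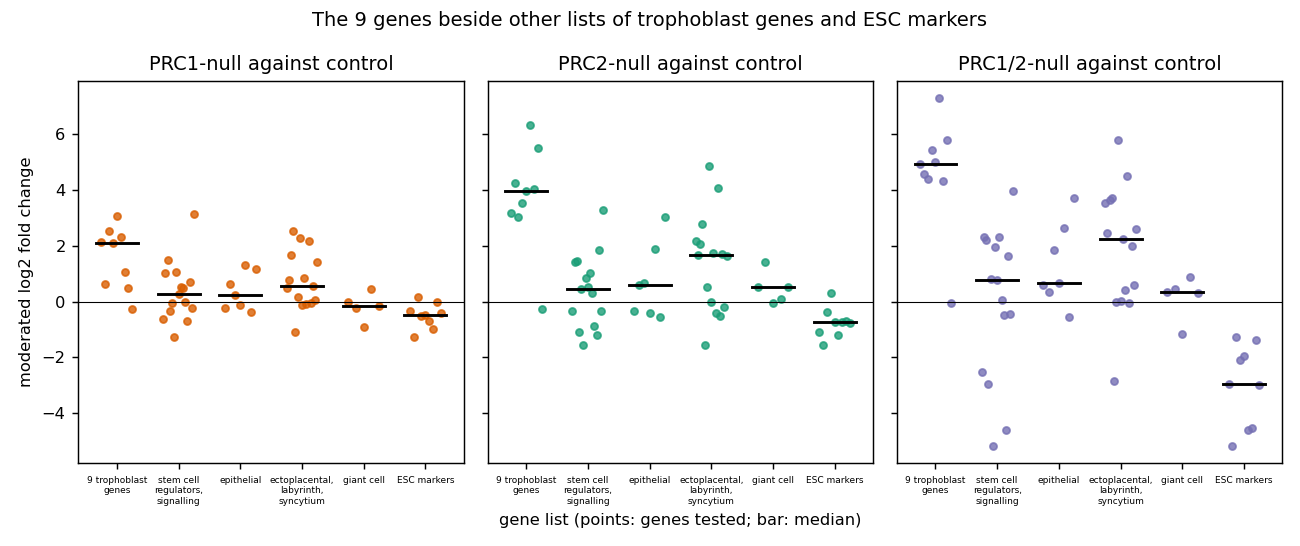
Moderated log2 fold change against control of each tested gene (points) and the list median (bars) for the 9 trophoblast genes, the other trophoblast lists and ESC markers, 1 panel per null group. The median of the 9 genes is 2.12 in PRC1-null cells, 3.96 in PRC2-null cells and 4.93 in PRC1/2-null cells, and that of the ESC markers −0.47, −0.72 and −2.95. Primitive endoderm and mesoderm markers, whose medians also rose, are not drawn.

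Markers of other cell states were counted in the same comparisons, in which 10.9%, 15.1% and 21.1% of all genes were called higher and 1.1%, 5.19% and 10.4% lower. Of 9 tested ESC markers, 1 was lower in PRC1-null cells, 3 in PRC2-null cells and 9 in PRC1/2-null cells, and their summed implied mean was 0.795, 0.582 and 0.216 times that of control cells. *Sox2*, a core pluripotency factor, was at −0.68, −1.18 and −4.59 in these groups. Of 10 primitive endoderm markers, 4, 10 and 8 were higher, with a summed implied mean of 6786 in PRC1-null cells, 19870 in PRC2-null cells and 19578 in PRC1/2-null cells, against 3177 in control cells. The median log2 fold change of this list was 0.87, 2.42 and 2.57. *Foxa2*, an endoderm factor, was at 1.12, 3.79 and 3.92. Of 12 mesoderm markers, chosen because that tissue also uses *Hand1*, *Gata2* or *Cdx2*, 10 were tested in PRC1-null cells and 11 in the Eed-/- groups, and 9, 8 and 9 were higher. Their summed implied mean was 548 in PRC1-null cells, 643 in PRC2-null cells and 1208 in PRC1/2-null cells, against 147 in control cells. The median log2 fold change of the mesoderm markers was 2.28, 2.50 and 2.81. *Foxf1*, a factor of extraembryonic mesoderm, was at 3.46, 4.03 and 5.63. Of 8 fibroblast and feeder markers 4 were tested in PRC1-null cells and 7 in the Eed-/- groups, and 2, 2 and 1 were higher. These shares were 50%, 28.6% and 14.3%. They lay above those of all genes in PRC1-null and PRC2-null cells and below in PRC1/2-null cells. The summed implied mean of this list was 257 in PRC1-null cells, 383 in PRC2-null cells and 380 in PRC1/2-null cells, against 165 in control cells. *Col1a2*, a collagen gene, was at 1.05, 3.30 and 3.31. *Col1a1* was called higher in PRC1-null cells (1.32) and *Postn* in PRC2-null cells (1.77), the latter with a mean of only 1.36. *Thy1* and *Acta2* had means of 128 and 42.2, and *Dcn*, *Lum* and *Col3a1* had means of 1.11, 0.283 and 1.01. No marker found on these lists had a mean of 0. The part of such cells in the changes of the trophoblast genes was not tested.

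The targeted genes were checked in each group. *Eed* had an implied mean of 4413 in PRC1-null cells, 1161 in PRC2-null cells and 1001 in PRC1/2-null cells, against 4315 in control cells, with log2 fold changes of 0.03, −1.89 and −2.10. *Rnf2*, which encodes RING1B, was at −0.41 in PRC1-null cells, −0.26 in PRC2-null cells and −0.50 in PRC1/2-null cells, and reads outside a deleted part of the gene would still be counted. *Ring1*, which encodes RING1A and is disrupted in every group, had implied means between 11.7 (PRC1-null) and 19.5 (PRC2-null) in the null groups, against 28.8 in control cells, and its change of −1.13 in PRC1-null cells passed the test (adjusted p = 0.0333). How deeply each library was sequenced is unknown, and counting error is not stated for that reason.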

How the data were processed

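Nuclear RNA was sequenced as 80-bp paired-end reads with a stranded kit. After filtering out rRNA with Bowtie 2, the authors mapped reads to mm10 with STAR, dropped duplicates with SAMtools and ran DESeq2 on a nonredundant gene set, and versions are not given in the sources used here. The authors' 3 tables hold comparisons of each null group with control and no values per library. The deposited signal is a mean normalized count across the 16 libraries, equal in the 3 tables, so that they come from 1 fit and low genes carry larger errors. Of the 2 kinds of log2 fold change the authors deposited, unshrunken and moderated toward 0, the moderated kind, which shrinks low genes most, was used unless said otherwise. A Wald statistic is the deposited score, and it equalled the moderated change over its standard error. The deposited p-value was used as adjusted by the authors (Benjamini-Hochberg over 17445 entries in PRC1-null cells and 18588 in the other tables). These comparison values were used as deposited because no other values were at hand.

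Symbols came from RefSeq (20446 entries) and GENCODE M21 (114), 20560 of 20633 in all. Differences between comparisons were tested per entry with a two-sided Wald test, with the variance the sum of the squared standard errors, and adjusted by Benjamini-Hochberg over all entries tested in the tables used. The tests of differences were tested on simulated data with normal errors. Moderation was not simulated, so that this does not cover its effect on genes low in control cells. Implied means assume 4 equal groups in 1 fit. The genes named were the 9 trophoblast genes and up to 4 genes of smallest adjusted p per other list and comparison. The 3 genes nearest to *Hand1* and to *Gata3*, and *Eed* and *Rnf2*, were named as well. *Fzd5*, *Prl3b1*, *Ctsq*, *Epcam*, *Ring1*, *Thy1*, *Acta2*, *Dcn*, *Lum* and *Col3a1* were named after their values were seen. The genes and lists were chosen with earlier results of these data known. Alternatives were other fold and p thresholds, unshrunken changes, filters at a mean of 10, re-centring and the variance of differences. Differences of unshrunken changes kept the standard errors of the moderated ones. The shared control variance was taken out by scaling the summed variance down by a fixed factor, which assumes equal variance in every group. Python 3.11.15 with pandas 2.3.3, numpy 2.4.6, scipy 1.17.1 and matplotlib 3.10.9 was used.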

Additional observations from a re-analysis of the deposited data

Results flagged for a closer look

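For *Gata3* the effect of tamoxifen differed between the Eed-/- clone and cells with EED, by −2.01 on the log2 scale in a test of the difference itself (adjusted p = 0.000121). The effect was 1.05 between PRC1/2-null and PRC2-null cells and 3.07 between PRC1-null and control cells. The 9 trophoblast genes were examined in this way, and *Gata3* alone passed as tested in the report, with 2 more genes under the alternatives named next. Over all genes tested, 5.42% passed in the same negative direction, and nothing about the 9 genes as a set is drawn from 1 call.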

How the results depend on the processing

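The counts of trophoblast genes called in the 3 comparisons with control and in the 3 differences between comparisons stayed within 1.5 times of the reported ones under every alternative tried. The departure from additivity was called for 3 genes in place of 1 with the shared control variance taken out. It was likewise called for 3 genes with unshrunken log2 fold changes, *Hand1* (−1.75) and *Esx1* (−1.29) being added to *Gata3*. The latter setting kept the standard errors of the moderated changes and is no proper test. How many of all genes were called under either alternative was not computed, so the rise cannot be read as particular to these genes. *Tfap2c* in PRC1/2-null cells turned from negative to positive, at 0.042 re-centred on all entries and 0.076 re-centred by chromosome, without being called. Of the other values of single genes under alternatives, 390 kept their direction and side of the threshold, 6 passed it newly (among them, with the shared control variance taken out, *Cdx2* for PRC2-null minus PRC1-null at 1.01 and *Hand1* for PRC1/2-null minus PRC2-null at 0.97) and 1 no longer passed, which was the difference of 0.89 for *Gata3* between PRC2-null and PRC1-null cells where a difference over 1 was asked for. No paired analysis was possible because the deposited tables hold no values per library, and leaving out replicates in turn was not run for the same reason. The implied means of *Elf5*, *Plac1*, *Cdx2* and *Hand1* in control cells were all under 10.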

Other observations

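Genes whose 3 moderated log2 fold changes lay nearest to those of *Hand1* and *Gata3* were sought among 14489 genes whose mean was 10 or more, by Euclidean distance over the changes in the 3 null groups. Nearest to *Hand1* were *Plcl1* (distance 1.52, with changes of 2.02, 5.43 and 6.09), *Flt1*, a VEGF receptor that trophoblast and endothelium use (1.99, with 1.99, 5.06 and 5.78), and *H19*, an imprinted noncoding RNA (2.00, with 1.97, 4.92 and 5.90). No gene lay closer than 1.52, and all of these changed less than *Hand1* in the Eed-/- groups. Nearest to *Gata3* were *Irx4*, a homeobox gene known from heart ventricle (0.178, with 2.95, 3.83 and 4.97), *Cbx8*, which encodes a PRC1 subunit (0.318, with 2.94, 4.23 and 4.92), and *Nrn1* (0.413, with 2.93, 3.81 and 4.65). The 3 changes share their control libraries, so that this likeness is a description over 3 values per gene.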
